A study of Mus musculus with 31 samples.

Results

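The genes described here encode SR proteins and the related Tra2 proteins, heterogeneous nuclear ribonucleoproteins (hnRNPs) and the Clk kinases of the mouse. They were chosen by symbol, and all 35 listed symbols were found among the 41255 rows shared by the table of total mRNA and the table of polysomal RNA. The set holds 12 SR and Tra2 genes, 19 hnRNP genes and 4 Clk genes. Every member had a mean normalised read count of at least 10 in each table and so entered every test, and the lowest count recovered for any of them in any library was 121 reads, for Srsf4.

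SR proteins bind exonic sequences through RNA recognition motifs and recruit the splicing machinery with their arginine and serine rich domains, while hnRNPs coat nascent transcripts and often oppose exon inclusion. Clk kinases phosphorylate the arginine and serine rich domains and so release SR proteins from nuclear speckles. Many of these genes limit their own output: an excess of the protein promotes inclusion of a poison exon, which carries an early stop codon, or retention of an intron. Transcripts with an early stop codon are degraded by nonsense-mediated decay once ribosomes reach that codon, whereas transcripts that retain introns can stay in the nucleus. Clk1 and Clk4 are textbook cases of transcripts held in the nucleus with introns still to be removed.

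The mRNAs were measured in Ba/F3 cells, a mouse lymphoid pro-B line that grows on interleukin 3. In all groups the endogenous Rpl10, a protein of the large ribosomal subunit, was knocked down with a short hairpin RNA while a retrovirus supplied human RPL10, either WT or with the R98S change found in T-cell leukaemia. Each genotype was represented by 3 clones that grew from single cells (WT clones 28, 29 and 36, and R98S clones 11, 13 and 35), and clones were chosen for a strong knockdown, so differences between genotypes are differences between small sets of clones. Total mRNA came from 9 R98S and 8 WT libraries, and RNA of pooled polysomal fractions (mRNA with at least 2 ribosomes) from 8 R98S and 6 WT libraries. Libraries carry a replicate number from 1 to 3, and 14 cultures (8 R98S and 6 WT) had a library of each kind. Polysomal RNA of WT had 1 library in number 1, 2 in number 2 and 3 in number 3, and WT clone 36 had only number 3. Differences within number 1 in polysomal RNA and in the ratio therefore rest on a single WT culture.

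The libraries held 8831180 to 22059792 reads assigned to genes. The mouse Rpl10 gene, whose transcript both genotypes knock down, ranged from 901 to 2984 normalised read counts in R98S and from 620 to 5715 in WT total mRNA. Reads were aligned to the mouse genome, and whether reads of the human RPL10 transcript entered this value was not tested. Of 11 genes that define this line, 6 reached a mean of 10, led by the interleukin 3 receptor subunits Csf2rb and Csf2rb2, while Pax5 was listed at 0 in every total library and Vpreb1, Igll1, Ebf1 and Kit stayed at or below 4.63 in total mRNA. The summed normalised read count of these 11 genes was 110200 to 222400 in R98S and 56840 to 102200 in WT libraries, and that of 5 T-cell genes was 3.11 to 53.9 and 10.4 to 220.8. Of the other lists, the sums of 3 myeloid genes were 2.33 to 66.3 and 10.3 to 110.4, of 4 erythroid genes 214.5 to 1263 and 501.2 to 2293, mostly from Klf1, and of 4 fibroblast genes at most 12.03. The sums of the genes that define the line did not overlap between genotypes and the others did. Most of the first sum came from Csf2rb (mean 94860 in R98S and 41120 in WT total mRNA) and Csf2rb2 (70970 and 30590). Of the 6 genes that reached a mean of 10, Ptprc alone was lower in R98S (3989 and 5587). The part of these lists in the genotype results was not tested. The total mRNA libraries of R98S clones 13 and 35 with number 2 lay between the genotypes: on an axis from the mean WT library at 0 to the mean R98S library at 1 they stood at 0.579 and 0.596, and the other R98S libraries at 0.936 to 1.16. The polysomal libraries of the same cultures stood at 1.06 and 0.897 on the axis of polysomal RNA. The calls of members between genotypes, in each fraction and for the ratio, are therefore also given without these cultures.

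The annotation (GENCODE M21, GRCm38) lists transcripts marked for nonsense-mediated decay for 24 of the 35 genes and transcripts with a retained intron for 27. It lists both kinds for 22 genes (62.9%), against 24.6% of the 9821 protein-coding genes tested. Reads were counted per gene, so a productive and an unproductive transcript of a gene give a single value here, and no isoform was measured. The sequences that follow show the 2 kinds of early stop as annotated for some of the genes described, as background to them, and are printed from the first base of the exon or intron, with the stop codon in capitals. The reading frame is the one carried in from the exon before it, so codons need not start at the first base shown. Positions are those of GRCm38.

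The poison exons of Srsf3, Srsf7, Tra2a and Tra2b are the following, from the first base of the exon to the stop.
Srsf3, exon of 456 bases on the plus strand, chr17:29039454-29039487: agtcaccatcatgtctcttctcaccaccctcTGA
Srsf7, exon of 460 bases on the minus strand, chr17:80205054-80205081: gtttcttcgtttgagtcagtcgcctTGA
Tra2a, exon of 306 bases on the minus strand, chr6:49252965-49253108: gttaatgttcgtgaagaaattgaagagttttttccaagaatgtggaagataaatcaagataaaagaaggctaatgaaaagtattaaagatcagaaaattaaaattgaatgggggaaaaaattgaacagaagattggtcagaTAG
Tra2b, exon of 276 bases on the minus strand, chr16:22259181-22259261: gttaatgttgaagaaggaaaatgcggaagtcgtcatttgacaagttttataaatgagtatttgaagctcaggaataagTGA

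For the Clk genes, the annotation holds transcripts that keep 12 introns in all, each of which begins with GT and ends with AG, and the frame meets a stop codon 4 to 86 bases into the intron. Intron 3, counted between coding exons, is kept in annotated transcripts of all 4 genes, and those of Clk1 and Clk4 share their first 23 bases. The Clk3 intron is entered in another reading frame than the other 3, so the shared number does not make it their counterpart.
Clk1, intron of 387 bases on the minus strand, chr1:58420059-58420120: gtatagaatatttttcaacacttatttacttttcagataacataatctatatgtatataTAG
Clk4, intron of 391 bases on the plus strand, chr11:51273169-51273248: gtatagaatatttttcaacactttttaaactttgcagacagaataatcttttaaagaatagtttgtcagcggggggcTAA
Clk2, intron of 346 bases on the plus strand, chr3:89169703-89169731: gtacaagccaaatcgtaacaatcctaTAG
Clk3, intron of 2100 bases on the minus strand, chr9:57760788-57760823: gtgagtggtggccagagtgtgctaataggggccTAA

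In WT cells the members were spread widely between polysomes and total mRNA. Most SR, Tra2 and hnRNP transcripts were richer in polysomes than the median gene, led by Hnrnpab, Srsf3 and Hnrnpc, while Clk1, Clk2 and Clk4 were among the poorest. The polysomal to total ratio of a gene is given as log2(polysomal value + 1) minus log2(total value + 1) in the same culture. The 2 tables were scaled separately, and the median of 10627 genes lay at -0.32 over the WT cultures rather than at 0. Ratios below are therefore relative to the median gene of each culture, with 0 as the median gene, unless called uncentred. On this scale the median member lay at 0.37 in WT and 0.21 in R98S cells.

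By limma against the median gene, 20 of the 35 members had a higher ratio in WT, with 30.7% of all genes tested called higher, and 6 had a lower ratio, with 28.5% of all genes called lower. Against an uncentred ratio of 0, which was the test set out in the design, 10 members were higher (14.6% of all genes) and 10 lower (44% of all genes). The 6 members below the median gene were Clk1, Clk2, Clk4, Srsf11, Hnrnpul1 and Hnrnpul2. In the R98S cultures the test against the median gene called 16 members higher (33% of all genes) and 8 lower (32.2% of all genes). Across the 35 members the mean ratios of the 2 genotypes, which share no library, had a Pearson r of 0.961 and a Spearman rho of 0.925, as a description across genes that share libraries and depth, and 33 of 35 members lay on the same side of the median gene.

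**Figure D1:**
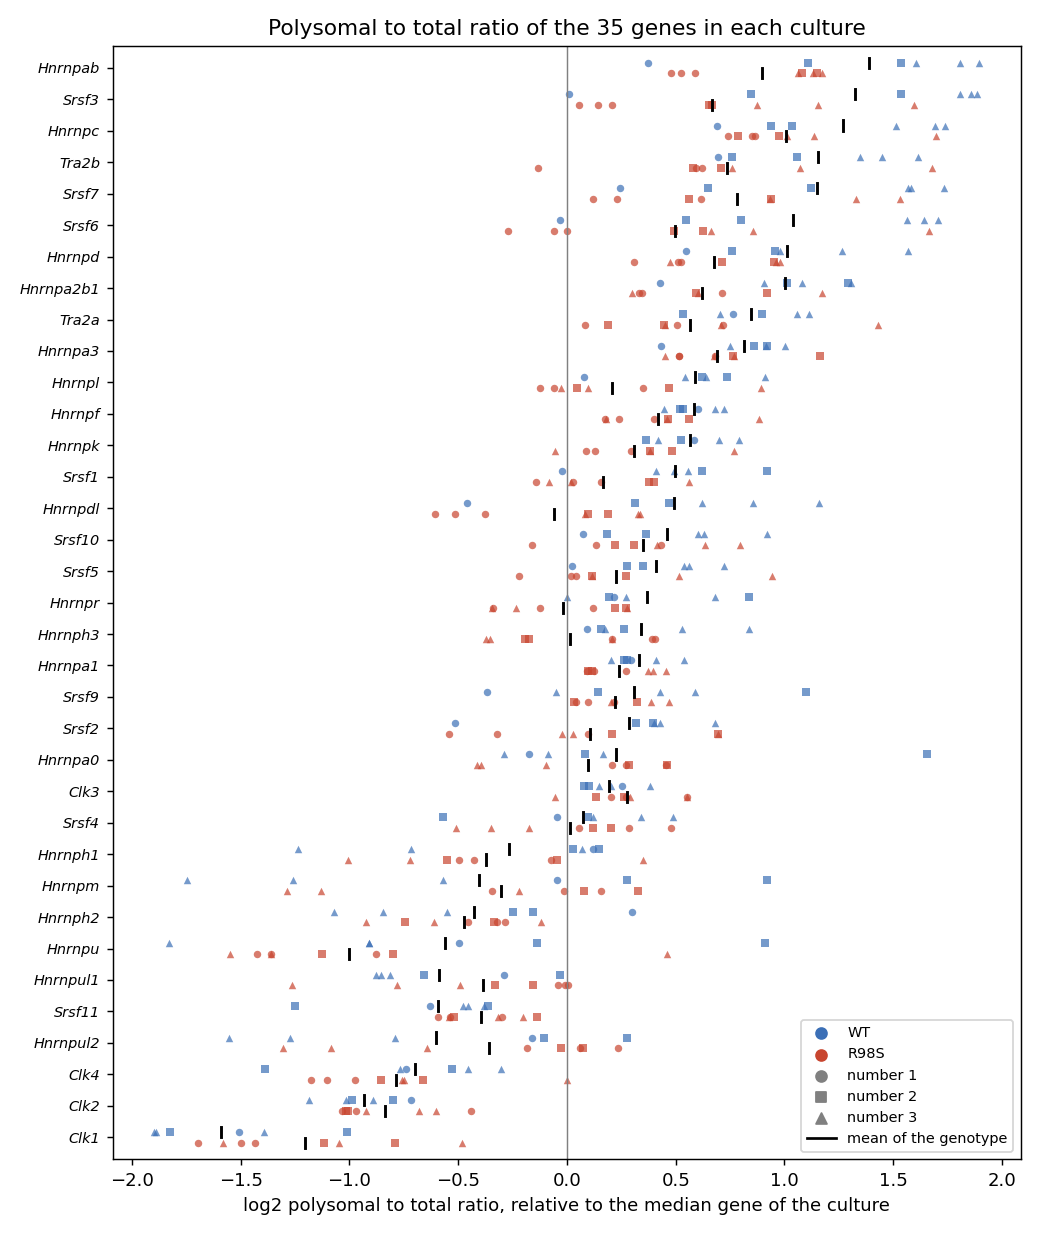
The log2 polysomal to total ratio of each of the 35 genes (rows, ordered by the WT mean) in 6 WT (blue) and 8 R98S (red) cultures, relative to the median gene of the culture. Marker shapes give the replicate number and black ticks the mean of a genotype. By the WT means Clk1, Clk2 and Clk4 lie lowest, in R98S cells Hnrnpu lies below Clk2 and Clk4, Clk3 lies near the median gene, and the points of number 3 (triangles) lie outermost for many genes.

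Among the SR proteins, Srsf3, the smallest of the family and a regulator of its own poison exon, had ratios from 0.01 to 1.89 with a median of 1.67 in the 6 WT cultures, a mean of 1.32 ± 0.35 (SE, adjusted p = 0.0161). The lowest value was that of WT clone 29 with number 1. Srsf7, whose protein binds purine-rich exonic enhancers and exports mRNA, had a mean of 1.15 ± 0.28 (SE, adjusted p = 0.0141), with values from 0.24 to 1.73. Srsf6 had a mean of 1.04 ± 0.28 (SE, adjusted p = 0.0176), again with its lowest value, -0.03, in WT clone 29 with number 1. For these 3 genes a WT culture of number 1 therefore lay at or near the median gene while cultures of number 3 lay at 1.56 or above.

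Srsf2, which reads exonic enhancers and promotes transcriptional elongation, had a mean of 0.28 ± 0.18 (SE, adjusted p = 0.205) and was not called. Srsf1, Srsf5 and Srsf10 were called higher with means from 0.41 to 0.50, and Srsf4 and Srsf9 were not called. Srsf11 was the exception among the SR genes. It encodes an SR protein of the U2 snRNP neighbourhood, and 11 of its 19 annotated transcripts keep an intron. Its ratio in WT ran from -1.25 to -0.36 with a median of -0.47, so that all 6 cultures lay below the median gene, with a mean of -0.59 ± 0.20 (SE, adjusted p = 0.0347). In R98S cells all 8 cultures lay below the median gene as well, from -0.59 to -0.14. Over the 35 members the mean WT ratio had a Spearman correlation of -0.13 with the annotated share of transcripts marked for decay or keeping an intron.

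Tra2a and Tra2b, sequence-specific splicing activators that act with SR proteins, were called higher. Tra2b had WT ratios from 0.70 to 1.61 with a median of 1.20 and a mean of 1.15 ± 0.25 (SE, adjusted p = 0.0111). Tra2a had WT ratios from 0.53 to 1.11 with a median of 0.83 and a mean of 0.84 ± 0.19 (SE, adjusted p = 0.0112). All 6 WT cultures lay above the median gene for each of them. The 8 members with an annotated poison exon were spread from Srsf11 at -0.59 and Srsf4 at 0.07 to Srsf3 at 1.32, so their ratios had no common level.

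Of the hnRNPs, 12 of 19 were called above the median gene in WT and 2 below it, with 30.7% and 28.5% of all genes. Hnrnpab, which binds AU-rich RNA, had the highest ratio of all members before any correction for length, 1.39 ± 0.34 (SE, adjusted p = 0.0141), with WT values from 0.37 to 1.90. Hnrnpc, which binds uridine tracts and keeps cryptic exons out of mRNA, followed with 1.27 ± 0.29 (SE, adjusted p = 0.0118) and values from 0.69 to 1.74. Hnrnpd, also known as AUF1, a factor of AU-rich mRNA decay, had 1.01 ± 0.23 (SE, adjusted p = 0.0113). Hnrnpa2b1, an exon silencer and RNA transport factor, had 1.00 ± 0.22 (SE, adjusted p = 0.0109), with values from 0.43 to 1.31. Hnrnpa3 had 0.81 ± 0.18 (SE, adjusted p = 0.0114). In every WT culture these 5 genes lay above the median gene.

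Hnrnpdl, whose transcript carries an alternative exon after the stop codon that its own protein controls, had a mean of 0.49 ± 0.21 (SE, adjusted p = 0.0706) and ranged from -0.46 to 1.16. The hnRNPs of the U family lay at the other end. Hnrnpul1, an RNA-binding partner of the DNA damage response, had a mean of -0.59 ± 0.21 (SE, adjusted p = 0.0365) with values from -0.88 to -0.03, and Hnrnpul2 one of -0.60 ± 0.27 (SE, adjusted p = 0.0806) with values from -1.55 to 0.28. Hnrnpu, a nuclear scaffold protein that binds chromatin and RNA, had a mean of -0.56 ± 0.31 (SE, adjusted p = 0.144) in WT, with WT cultures as far apart as -1.83 and 0.91. In the R98S cultures Hnrnpu was called lower, at -1.004 ± 0.21 (SE, adjusted p = 0.0031). Its R98S values ran from -1.55 to 0.46, the highest in R98S clone 13 with number 3. Hnrnph1, Hnrnph2 and Hnrnpm were lower against an uncentred ratio of 0 but were not called against the median gene in WT.

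The Clk kinases split. Clk1 had WT ratios from -1.90 to -1.01 with a median of -1.67, and its mean of -1.59 ± 0.27 (SE, adjusted p = 0.00512) placed it at rank 600 from the lowest of 10627 genes. Its polysomal share was thus about 0.33 times that of the median gene. Clk2 had a mean of -0.93 ± 0.21 (SE, adjusted p = 0.0116) with values from -1.19 to -0.72, and Clk4 one of -0.70 ± 0.22 (SE, adjusted p = 0.0244) with values from -1.39 to -0.31. All 6 WT cultures lay below the median gene for each of these 3 genes.

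Clk3 did not share this position, with WT values from 0.08 to 0.38 and a mean of 0.19 ± 0.15 (SE, adjusted p = 0.285). In the R98S cultures Clk3 was called above the median gene, at 0.28 ± 0.10 (SE, limma adjusted p = 0.0314). Within cultures Clk3 exceeded Clk1 by 1.78 ± 0.36 (SD, 6 of 6 WT cultures), Clk2 by 1.13 ± 0.20 (SD, 6 of 6) and Clk4 by 0.89 ± 0.33 (SD, 6 of 6). In R98S cultures Clk3 exceeded Clk1 and Clk2 in 8 of 8 and Clk4 in 7 of 8 cultures. The exception was the culture of R98S clone 13 with number 3, in which Clk4 stood at 0.00. Clk3 was set against its relatives after its values were known, so these differences are a description with no test.

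As levels per kilobase of the longest coding transcript in WT total mRNA, the Clk genes were at the low end of the set. Clk1 had 877 ± 194 normalised read counts per kilobase (SD, n = 8), Clk2 624 ± 102, Clk4 364 ± 51 and Clk3 329 ± 76, and the last 2 did not differ beyond their spread. Hnrnpa1 and Hnrnpa2b1 were the most abundant members, with 13090 ± 757 and 11840 ± 2130 per kilobase.

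The size of the ratios moved with the replicate number. Over all genes the SD of the uncentred log2 ratio in a culture was 0.599 to 0.783 in number 1, 0.618 to 1.015 in number 2 and 1.125 to 1.386 in number 3. Its Spearman correlation across genes with the log2 length of the transcript, a description over 10126 genes, was -0.406 to -0.0381 in number 1, -0.442 to -0.202 in number 2 and -0.647 to -0.569 in number 3. Over the 35 members the Spearman correlation of the mean WT ratio with length was 0.0373, against -0.582 over 9821 protein-coding genes.

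Srsf3 and Srsf6 differed widely between the numbers. The Srsf3 ratio lay between 0.01 and 0.21 in the 4 cultures of number 1, between 0.65 and 1.54 in the 4 of number 2 and between 0.87 and 1.89 in the 6 of number 3. Srsf6 lay between -0.27 and 0.00 in number 1 and between 0.66 and 1.71 in number 3, so that these numbers did not overlap. Hnrnpul2 moved the other way, between -0.18 and 0.24 in number 1 and between -1.55 and -0.64 in number 3, and all 6 cultures of number 3 lay below all 8 others. Hnrnpm lay between -0.34 and 0.16 in number 1 and between -1.75 and -0.22 in number 3.

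Clk1 and Clk2 lay below the median gene in each number. Clk1 lay between -1.69 and -1.43 in number 1, between -1.83 and -0.79 in number 2 and between -1.90 and -0.48 in number 3. Clk2 lay between -1.19 and -0.44 in all 14 cultures. Clk4 had a mean of -0.999 in number 1 and of -0.506 in number 3, with its highest value level with the median gene. Hnrnpc lay between 0.69 and 1.74 and Hnrnpab between 0.37 and 1.90 in all 14 cultures, so their sign did not depend on the number although their size did. Without the 3 WT cultures of number 3, which left 3 cultures, no gene of 10627 was called, and the uncentred means were -1.75 for Clk1 (adjusted p = 0.145), -1.14 for Clk2 (adjusted p = 0.146), -1.19 for Clk4 (adjusted p = 0.153) and 0.49 for Srsf3 (adjusted p = 0.463).

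With each culture corrected for transcript length, Clk1 stood at -2.08, Clk2 at -1.28, Clk4 at -1.13 and Clk3 at -0.02 relative to the median gene in WT. Srsf3 stood at 1.15, Srsf7 at 0.90 and Tra2b at 1.24, while Tra2a stood at 0.35, Hnrnpa2b1 at 0.48 and Hnrnpul2 at -0.13. The order of the members changed with the correction. Hnrnpr, whose longest coding transcript has 21452 bases, stood highest at 2.13, and Hnrnpd at 1.75 and Hnrnpa3 at 1.29 also stood above Hnrnpab at 1.125. Hnrnpu moved to the other side of the median gene, at 0.28, as did Srsf5 at -0.17 and Hnrnpa1 at -0.11. The longest coding transcripts of Clk1, Clk2 and Clk4 have 1796, 2154 and 1949 bases, among the shorter of the set.

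**Figure D2:**
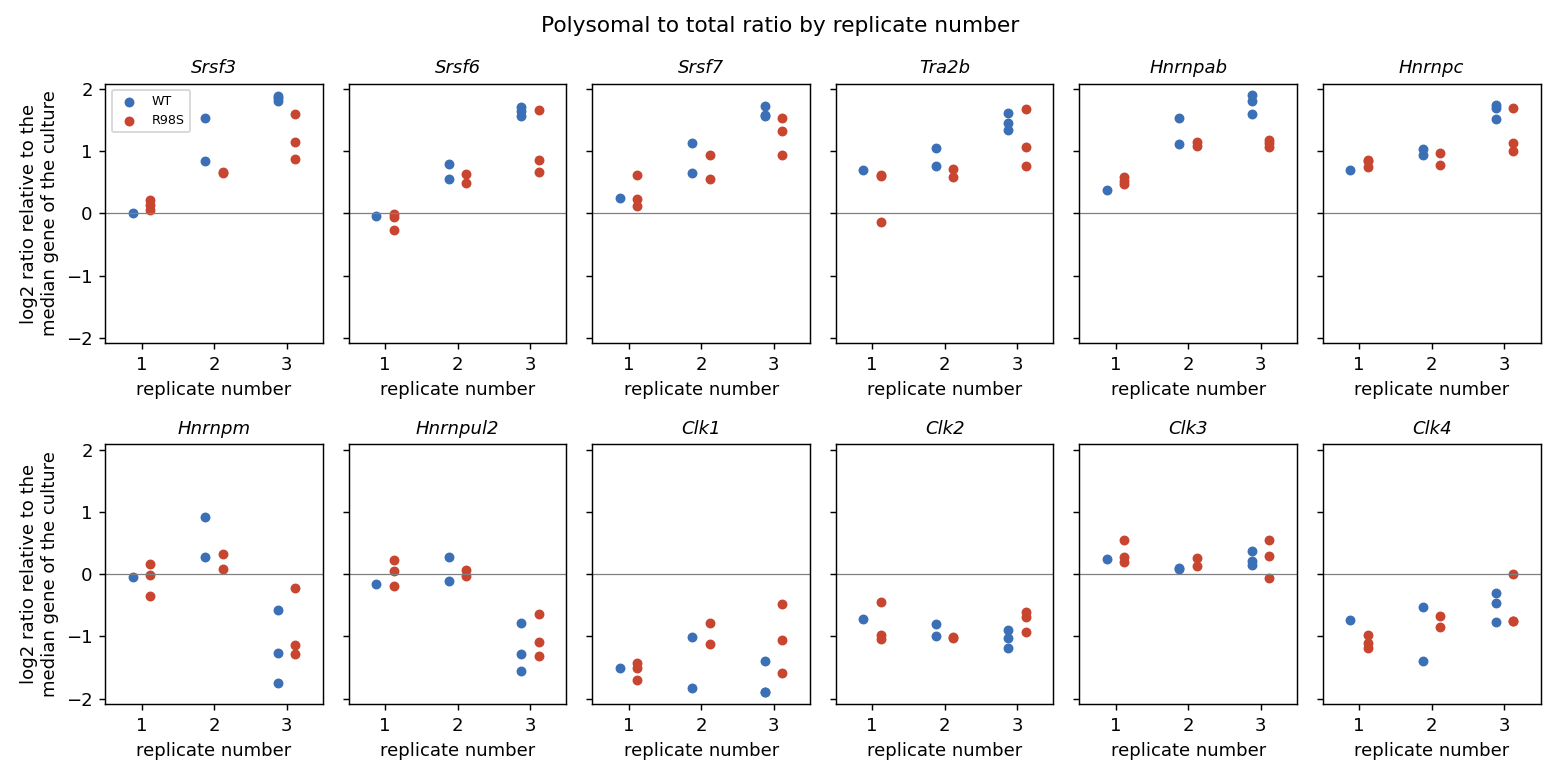
The log2 polysomal to total ratio relative to the median gene (vertical axes) of 12 members in WT (blue) and R98S (red) cultures by replicate number (horizontal axes). Srsf3 lies at 0.01 to 0.21 in number 1 and at 0.87 to 1.89 in number 3, Hnrnpul2 drops below the median gene in number 3, and Clk1 and Clk2 lie below it in every culture.

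The genotype comparison in total mRNA asked which of these transcripts the R98S change of RPL10 alters in amount. Clk1 was higher in R98S cells, and Hnrnpa1, Hnrnpul1, Tra2a, Hnrnph3 and Srsf11 were lower. These are 1 of 35 members higher, with 14.5% of 11133 genes called higher, and 5 of 35 lower, with 15.8% of genes called lower, so neither share exceeded the background. The median log2 difference over the members was 0.03, and over all genes tested 0.00. None of the other 29 members was called, and their differences ran from -0.26 for Srsf4 (adjusted p = 0.106) to 0.26 for Hnrnpab (adjusted p = 0.333). As these are bulk samples, fewer cells with a transcript and less of it per cell cannot be told apart.

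Clk1 had 1652, 2024 and 3364 normalised read counts as the lowest, median and highest of 9 R98S libraries and 1193, 1578 and 2109 of 8 WT libraries. The groups overlapped, with 4 R98S libraries above every WT library. The difference was 0.54 ± 0.17 on the log2 scale (SE, 1.46-fold, limma adjusted p = 0.0247). Within numbers 1, 2 and 3 it was 1.00, 0.16 and 0.54. It was no longer called without number 1 (0.35, adjusted p = 0.205), without number 3 (0.56, adjusted p = 0.115) or without R98S clone 11 (0.44, adjusted p = 0.113), and without R98S clones 13 and 35 of number 2 it was 0.65 (adjusted p = 0.00962).

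The other Clk transcripts were not called. Clk2 had a median of 1367 in R98S and 1290 in WT (log2 difference -0.02 ± 0.12 SE, adjusted p = 0.928), Clk3 864 and 775 (0.05 ± 0.12, adjusted p = 0.804), and Clk4 815 and 699 (0.18 ± 0.11, adjusted p = 0.242). The 95% intervals were -0.26 to 0.22 for Clk2, -0.19 to 0.29 for Clk3 and -0.04 to 0.41 for Clk4.

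In polysomal RNA the Clk1 difference was 1.00 ± 0.16 on the log2 scale (SE, 1.99-fold, adjusted p = 0.00073). The 8 R98S libraries had 550, 874 and 1154 normalised read counts as lowest, median and highest, and the 6 WT libraries 382, 404 and 476. All 8 R98S libraries lay above all 6 WT libraries. The difference was 0.96, 0.72 and 1.28 within numbers 1, 2 and 3, and it was called in all 38 alternatives, with adjusted p up to 0.0243. Clk2 (0.13 ± 0.16), Clk3 (0.18 ± 0.12) and Clk4 (0.22 ± 0.18, SE) were not called in polysomal RNA, with adjusted p of 0.718, 0.427 and 0.573.

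**Figure D3:**
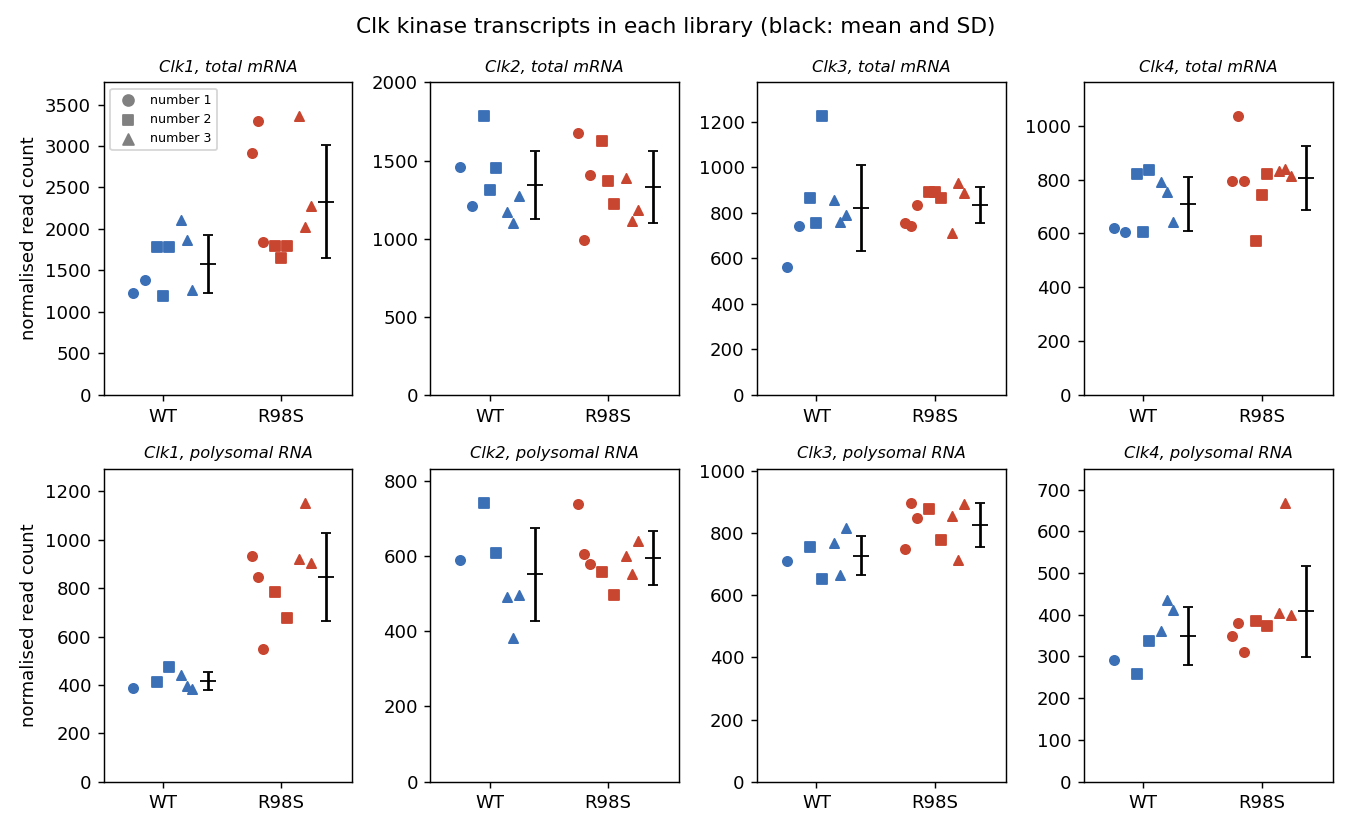
Normalised read counts (vertical axes, from 0) of the 4 Clk genes in each WT (blue) and R98S (red) library, for total mRNA (upper row, 8 and 9 libraries) and polysomal RNA (lower row, 6 and 8 libraries). Marker shapes give the replicate number and black bars the mean and SD. In polysomal RNA every R98S library lies above every WT library for Clk1, with 550 as the lowest R98S and 476 as the highest WT value.

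Hnrnpa1, an abundant hnRNP that silences exons and shuttles between nucleus and cytoplasm, was lower in R98S cells in each fraction. In total mRNA the R98S libraries had 13586, 16480 and 20757 normalised read counts as lowest, median and highest, and the WT libraries 23600, 24662 and 27931. No R98S library reached a WT library, and Hnrnpa1 was the only member whose groups did not overlap in total mRNA, as was the case for 3.53% of all genes. The difference was -0.62 ± 0.09 (SE, 0.651-fold, adjusted p = 4.7e-05), with -0.59, -0.51 and -0.75 within numbers 1, 2 and 3, and it was called in all 41 alternatives. In polysomal RNA the R98S libraries ran from 14313 to 18483 and the WT libraries from 22515 to 28844, a difference of -0.63 ± 0.14 (SE, adjusted p = 0.00819) that was called in 35 of 38 alternatives and lost without number 1 (adjusted p = 0.159), with quantile scaling (0.166) and with clone means (0.144). Of the 50-base stretches of the Hnrnpa1 transcripts, 46.4% also occur in transcripts of other genes. The study kept alignments with a mapping quality of at least 10, so reads from such stretches could have been dropped. The Hnrnpa1 value is uncertain to that extent. The share of such stretches was 67.3% for Hnrnpf, 37.8% for Hnrnpk, 35.2% for Srsf2, 31.5% for Srsf3 and 29% for Hnrnpab. It was 19% for Clk3 and 0% for Clk1, Clk2 and Clk4.

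Hnrnph3, a small relative of hnRNP H, was lower as well. Its R98S libraries had 245, 364 and 440 counts and its WT libraries 370, 438 and 605 as lowest, median and highest in total mRNA, with a difference of -0.37 ± 0.13 (SE, adjusted p = 0.0483) and 5 of 9 R98S libraries below every WT library. In polysomal RNA the R98S libraries ran from 249 to 333 and the WT libraries from 371 to 598, with no overlap, as for Clk1 and Hnrnpa1 and for 4.96% of all genes. The polysomal difference was -0.71 ± 0.15 (SE, 0.613-fold, adjusted p = 0.00683), called in all 38 alternatives, and it was -0.31, -0.71 and -0.89 within numbers 1, 2 and 3. In total mRNA the call was lost without number 1, 2 or 3, with adjusted p of 0.194, 0.115 and 0.141, and without R98S clone 11, WT clone 28 or WT clone 29, with 0.155, 0.194 and 0.113.

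Hnrnpul1 was lower in total mRNA, with 4247, 5398 and 5944 counts in R98S and 5260, 6915 and 7799 in WT libraries. The difference was -0.40 ± 0.09 (SE, adjusted p = 0.00474), called in all 41 alternatives, and -0.36, -0.39 and -0.44 within the 3 numbers. In polysomal RNA it was -0.15 ± 0.27 (SE, adjusted p = 0.837).

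Tra2a had 1247, 1575 and 1844 counts in R98S and 1694, 1900 and 2256 in WT total mRNA, and 8 of 9 R98S libraries lay below every WT library. The difference was -0.29 ± 0.09 (SE, adjusted p = 0.0206), with -0.41, -0.09 and -0.36 within the 3 numbers. Without number 1 it was -0.22 (adjusted p = 0.117), without number 3 -0.25 (adjusted p = 0.211) and without WT clone 28 -0.26 (adjusted p = 0.124). In polysomal RNA the difference was -0.54 ± 0.20 (SE, adjusted p = 0.106), and 7 of 8 R98S libraries lay below every WT library. Srsf11 had a difference of -0.23 ± 0.08 (SE, adjusted p = 0.0567) in total mRNA and of 0.05 ± 0.13 (adjusted p = 0.902) in polysomal RNA, and its total mRNA call held in 31 of 41 alternatives. It was lost without number 1, 2 or 3, without R98S clone 13 or WT clone 28, and without the library of number 1 from R98S clone 13 or of number 2 from WT clone 28, with adjusted p of up to 0.236, and also with no filter on low values (0.108), quantile scaling (0.222) and clone means (0.115).

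**Figure D4:**
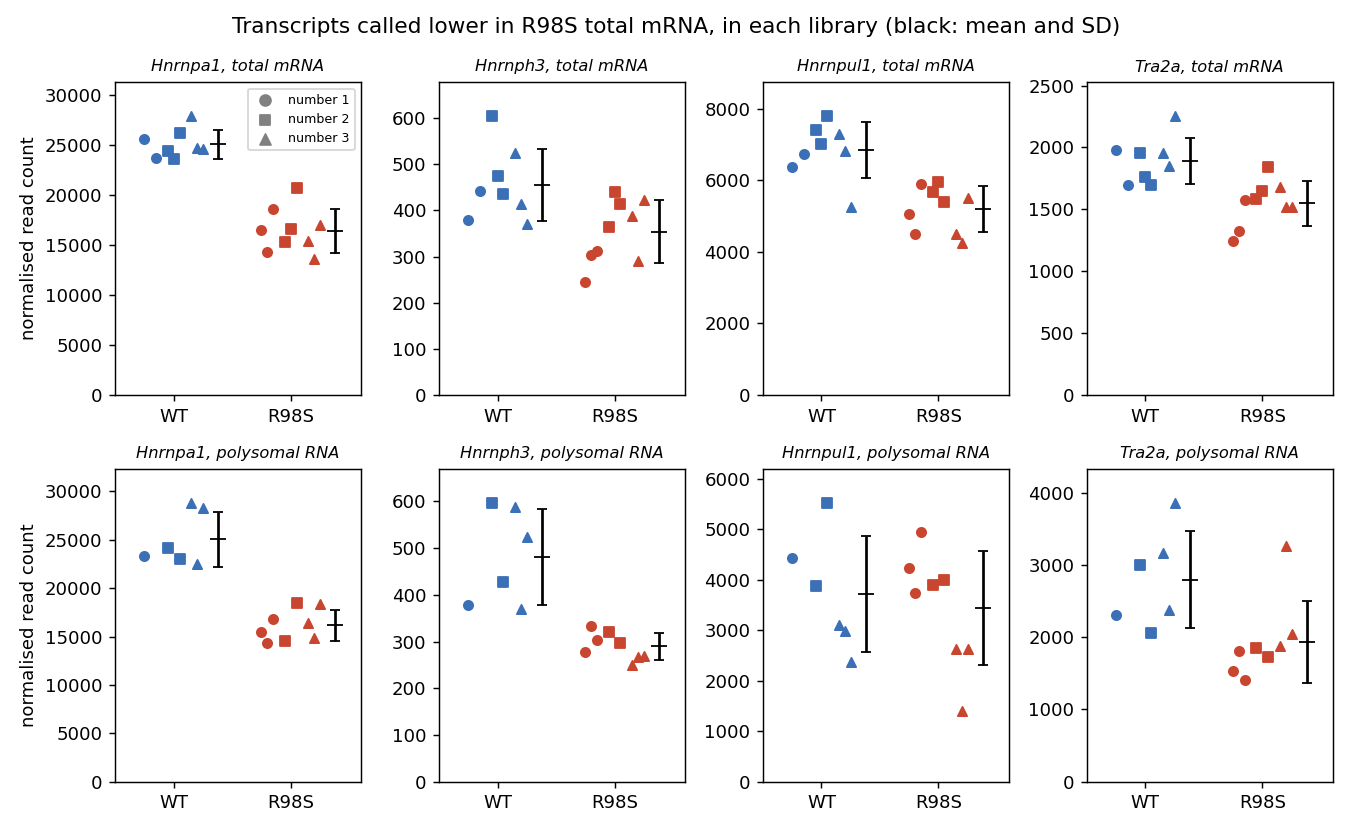
Normalised read counts (vertical axes, from 0) of Hnrnpa1, Hnrnph3, Hnrnpul1 and Tra2a in each WT (blue) and R98S (red) library, for total mRNA (upper row) and polysomal RNA (lower row). Marker shapes give the replicate number and black bars the mean and SD. The genotypes do not overlap for Hnrnpa1 in either fraction, and for Hnrnph3 they do not overlap in polysomal RNA.

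In polysomal RNA as a whole 1 of 35 members was called higher (Clk1, with 7.66% of 10707 genes called higher) and 2 lower (Hnrnpa1 and Hnrnph3, with 5.87% called lower). The median log2 difference over the members was -0.19, against -0.02 over all genes tested, and 26 of 35 members had a negative difference. Over other settings this median ran from -0.21 to -0.04, and with numbers, clones or libraries left out from -0.23 to -0.13. The replicate number paired the cultures, and a fit with the number as a block called 5 members lower in polysomal RNA, with 15.7% of all genes called lower and 15.2% higher. The additional ones were Srsf3 (-0.50 ± 0.13 SE, adjusted p = 0.0106), Tra2a (-0.46 ± 0.15, adjusted p = 0.0382) and Hnrnpdl (-0.35 ± 0.11, adjusted p = 0.0249). Without the block Srsf3 had -0.64 ± 0.28 (adjusted p = 0.197) and Hnrnpdl -0.39 ± 0.14 (adjusted p = 0.112). In total mRNA the block added Srsf4 to the lower members (-0.27 ± 0.10 SE, adjusted p = 0.0469), which made 6 lower and 1 higher, with 19.9% and 18.5% of all genes. The part of the exons of Srsf4 that overlaps a gene on the opposite strand, Gm12992, is 43%, and 65.4% of its 50-base stretches recur in other genes.

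Srsf3 in polysomal RNA ran from 5187 to 11640 with a median of 6842 in R98S and from 6782 to 18541 with a median of 12799 in WT libraries, and 4 of 8 R98S libraries lay below every WT library. Its difference was -0.23, -0.44 and -0.67 within numbers 1, 2 and 3, where a single WT library stood for number 1. In total mRNA Srsf3 did not differ detectably (0.02 ± 0.16 SE, adjusted p = 0.950). Without the block, Srsf2, Srsf7, Tra2b, Hnrnpdl and Hnrnpa2b1, further members known for poison exons or retained introns, were not called in either fraction. In total mRNA their differences were 0.16 ± 0.17 for Srsf2, 0.13 ± 0.14 for Srsf7, 0.16 ± 0.19 for Tra2b, 0.07 ± 0.17 for Hnrnpdl and 0.14 ± 0.11 for Hnrnpa2b1 (SE). In polysomal RNA they were 0.01 ± 0.16 for Srsf2, -0.25 ± 0.25 for Srsf7, -0.29 ± 0.33 for Tra2b and -0.25 ± 0.15 for Hnrnpa2b1 (SE).

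Without the cultures of R98S clones 13 and 35 of number 2 the calls in total mRNA were those given above together with Srsf4 (-0.29, adjusted p = 0.0919), and those in polysomal RNA were again Clk1 (1.06, adjusted p = 0.00239), Hnrnpa1 (-0.64, adjusted p = 0.0308) and Hnrnph3 (-0.74, adjusted p = 0.0212). The share of all genes called without these cultures is not given, so these calls are read gene by gene only.

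**Figure D5:**
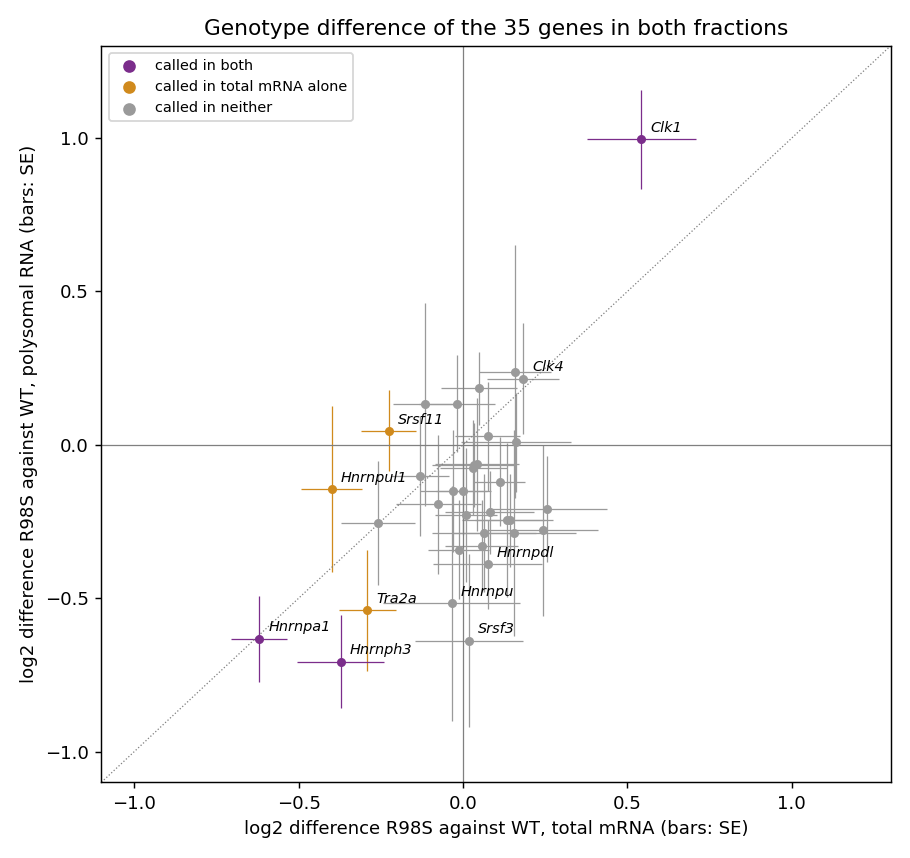
The log2 difference of R98S against WT in total mRNA (horizontal axis) and polysomal RNA (vertical axis) for the 35 genes, with SE as bars. Colours mark genes called at an adjusted p under 0.1, and the dotted line marks equal differences. Clk1 stands alone at the upper right with 0.54 and 1.00, and Hnrnpa1 and Hnrnph3 at the lower left were called in both fractions.

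The difference of the polysomal to total ratio between genotypes asked whether R98S cells load these transcripts on polysomes differently for a given amount of mRNA. It was taken on uncentred ratios unless called centred. No member was called, higher or lower, by limma, where 0.047% of 10627 genes were called higher and 0% lower. A fit with the number as a block, in which 0.367% of all genes were called higher and 0.0659% lower, also called 0 members, as did edgeR and DESeq2 on the recovered reads. At an unadjusted p under 0.05, 1 member passed without the block, Hnrnpdl (-0.50 ± 0.23 SE, limma adjusted p = 0.767). With the block 3 members passed it, Srsf3, Hnrnpdl and Clk1. Over all 10627 genes 687 passed it without the block and 1281 with it, a larger share than among the members. The median over the members was -0.13, against 0.01 over all genes tested, and 27 of 35 members had a negative difference. With the block 24 of 35 had a negative difference. Over other settings the median ran from -0.24 to -0.07, and with numbers, clones or libraries left out from -0.27 to -0.05.

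The intervals show what these 14 cultures could resolve. For Clk1 the uncentred ratio was higher in R98S by 0.43 ± 0.26 (SE), with a 95% interval of -0.12 to 0.98 and an adjusted p of 0.852. Relative to the median gene its 8 R98S cultures ran from -1.69 to -0.48 and its 6 WT cultures from -1.90 to -1.01, and within numbers 1, 2 and 3 the centred difference was -0.03, 0.47 and 0.69. For Srsf3 the uncentred difference was -0.61 ± 0.33 (SE, 95% interval -1.30 to 0.09, adjusted p = 0.833), with 0.13, -0.53 and -0.64 within the numbers after centring. Hnrnpa1, which was lower in each fraction, had an uncentred ratio difference of -0.04 ± 0.13 (SE, 95% interval -0.31 to 0.23, adjusted p = 0.9745).

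For the other members given in each comparison, the uncentred ratio difference was -0.13 ± 0.22 for Srsf2, -0.32 ± 0.29 for Srsf7, -0.23 ± 0.20 for Tra2a, -0.37 ± 0.26 for Tra2b and -0.33 ± 0.20 for Hnrnpa2b1 (SE), with adjusted p from 0.851 to 0.954. The uncentred differences of Clk2 (0.15 ± 0.19), Clk3 (0.13 ± 0.14) and Clk4 (-0.04 ± 0.23, SE) had adjusted p of 0.944, 0.936 and 0.984. The 95% intervals of these 8 differences lay between -0.93 and 0.55, and each of them included 0.

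Other genes of the splicing pathway were counted by the same tests. Of 57 other SR-related and splicing regulators tested, 6 had a ratio above the median gene in WT and 21 below it, with a median of -0.29, where 30.7% of all genes were called higher and 28.5% lower. Among these were Srrm2 (-3.01 ± 0.40 SE) and Son (-2.53 ± 0.37), large scaffold proteins of nuclear speckles, and Rbm25 (-2.03 ± 0.32). Of 54 core spliceosome genes 25 were above and 17 below, with a median of 0.32, and of 18 genes of nonsense-mediated decay and the exon junction complex 4 were above and 7 below, with a median of -0.35. Of 13 nuclear-retained and snoRNA host transcripts only Snhg1 was tested for the ratio, at -0.25 ± 0.33 (SE, adjusted p = 0.551).

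Between genotypes the other regulators gave 2 higher and 8 lower of 57 in total mRNA and 4 higher and 4 lower in polysomal RNA. Over all genes the shares called were 14.5% higher and 15.8% lower in total mRNA and 7.66% and 5.87% in polysomal RNA. Pspc1, a paraspeckle protein, was lower in each fraction (-0.71 ± 0.11 and -0.86 ± 0.14 SE), as was Luc7l in polysomal RNA (-0.61 ± 0.11), while Ptbp3 was higher in each (0.71 ± 0.19 and 0.84 ± 0.18). Srpk2, a cytoplasmic kinase of SR proteins, was lower in total mRNA (-0.57 ± 0.12 SE, adjusted p = 0.00201). The core spliceosome gave 5 higher and 5 lower of 54 in total mRNA and 1 higher and 4 lower in polysomal RNA, and the decay and exon junction genes 1 higher and 2 lower of 18, then 0 higher and 1 lower. Of the noncoding host transcripts 2 were tested in total mRNA, and Snhg6 was higher (0.90 ± 0.33 SE, adjusted p = 0.0572). With the number as a block the other regulators gave 5 higher and 12 lower in total mRNA and 5 and 10 in polysomal RNA, the core spliceosome 8 and 7, then 4 and 11, and the decay and exon junction genes 2 and 3, then 2 and 6. Over all genes the block called 18.5% higher and 19.9% lower in total mRNA and 15.2% and 15.7% in polysomal RNA. No gene of these lists was called for the ratio between genotypes by limma, where 1, 2, 0 and 0 genes of the 4 lists passed an unadjusted p under 0.05. With the block 0 were called as well, and 6, 7, 1 and 0 passed it.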

How the data were processed

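Per the labels and the study's methods, RNA of Ba/F3 clones was made into libraries with a stranded mRNA kit, aligned to mm10 with TopHat2 2.0.11 and counted per gene with HTSeq. The deposited values are a normalised signal, read counts that the authors divided by DESeq2 size factors, separately for each table. All values (100%) were whole multiples of a step per library within a tolerance of 0.01, which gave back whole reads. The study left out the total mRNA of WT clone 36, number 1, because it grouped with the R98S samples in a principal component analysis. It was not analysed here, and what its absence does to the genotype differences in total mRNA was not tested. In these samples p-values measure the spread between cultures of 3 clones per genotype.

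Differences were tested on log2(value + 1) with limma 3.58.1 in R 4.3.3 (variance trend, genes with a mean of at least 10, two-sided, Benjamini-Hochberg over all genes, called at an adjusted p under 0.1), after a run on simulated data. A ratio between the genotypes was the difference of the log2 ratios of matched cultures. The replicate number paired the samples: deviations from the group means correlated between genotypes within every number (r from 0.48 to 0.87). edgeR 4.0.16, DESeq2 1.42.0, other pseudocounts, filters, scalings, a length correction, and leaving out numbers, clones or libraries were alternatives. Even the most alike replicates differed beyond sampling noise (polysomal RNA of R98S clone 13, numbers 1 and 2, with 4.36 as the mean chi-square over genes), so each library was counted once. This does not make the libraries of a clone independent replicates of a genotype, and the main fit had no term for the clone. Clone means and the clone as a random block were among the alternatives. The members and the lists were chosen with earlier results of these data known. Named in full were the Clk genes, up to 6 called members per direction and comparison, and 7 members with known poison exons or retained introns. Sequences and annotation came from GENCODE M21.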

Additional observations from a re-analysis of the deposited data

Results flagged for a closer look

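Within the genotypes, 114 groups of values (19 named members, 3 measures and 2 genotypes) were checked for a library far from the others, and 10 stood out. The threshold is set so that chance alone marks about 1 group in 20, and the groups are not independent, since a ratio is built from the polysomal and total values of the same culture. R98S clone 13 with number 3 gave 5 of the 10. It had 668.9 polysomal counts of Clk4 against 311.6 to 403.9 in the other R98S libraries, 3258 of Tra2a against 1410 to 2040, and 11830 of Hnrnpab against 6802 to 8929. Its ratio relative to the median gene was 0.000973 for Clk4, with the others from -1.178 to -0.6641, and 1.428 for Tra2a, with the others from 0.08424 to 0.7181. The Hnrnpc ratio of R98S clone 35 with number 3 was 1.696, with the others from 0.7403 to 1.134.

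In WT, the polysomal library of clone 28 with number 2 had 1646 counts of Srsf11 against 2284 to 2600, and a Srsf11 ratio of -1.249 against -0.6292 to -0.3629. The Srsf2 ratio of WT clone 29 with number 1 was -0.5144 against 0.3173 to 0.6785. The total mRNA library of WT clone 36 with number 2 had 1227 counts of Clk3 against 563.2 to 867.4.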

How the results depend on the processing

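With ratios relative to the median gene, Srsf5 and Hnrnpa1 were called higher in WT (0.41 and 0.33) and lay at -0.17 and -0.11 after the length correction. In polysomal RNA the number of members called, 3, rose to 5 with TMM scaling, 5 with the clone as a random block, 6 with the replicate block, 6 with the length correction, 8 with the block and the length correction together, and 7 by DESeq2. Calls over all genes rose too, with the replicate block from 7.66% to 15.2% higher and from 5.87% to 15.7% lower. For the other settings the share of all genes called is not given, so their counts cannot be set against it. The lowest count over such settings was 2. Leaving out a number, clone or library gave 2 to 6 members in polysomal RNA, 2 to 7 in total mRNA (6 in the full set), 0 to 21 for the ratio in WT (20 in the full set) and 0 to 0 for the ratio between genotypes. Shares of all genes called are not given for these reduced sets, except that no gene was called for the ratio in WT without number 3. A fall among the members therefore cannot be told from a fall in all calls. The lowest counts came without number 3 for the ratio in WT and without number 1 for total mRNA, where 2 members were called. For the ratio in WT, 8 members were called without clone 28, 10 without its library of number 3, and 12 without clone 36 or the library of clone 29 with number 3. In total mRNA 3 members were called without number 3 and 3 without WT clone 28. In polysomal RNA 6 were called without number 3, and 5 without R98S clone 13, its library of number 3, WT clone 29 or the library of WT clone 28 with number 2. The median ratio over the members in WT, 0.04 before centring, was 0.37 after centring on the median gene. With the replicate block and centring together, a setting chosen after seeing the data, it was 0.31. With the replicate block and the length correction it was -0.15, an uncentred value that compares with 0.04 and not with 0.37. For the uncentred ratio in WT the replicate block added Srsf4 (-0.31, limma adjusted p = 0.0994) and Hnrnpf (0.26, 0.0696), and among the 35 members it changed no other call than these and those given in the report. For the same ratio it also called Snhg1 lower (-0.97, 0.0047). The cause of these shifts was not tested. The depth leaves at least 121 reads behind every member in every library.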
